A study of Mus musculus with 15 samples.

Results

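The Hox cluster genes were followed through RNA-Seq of NMuMG mouse mammary epithelial cells in which PCBP1 was knocked down and FAM3C or LIFR was then knocked out. Members were the genes named Hoxa, Hoxb, Hoxc or Hoxd with a paralog number, at whatever level they were listed. There were 25 of them among the 13893 genes of the knockout table and 24 of them among the 15023 genes of the knockdown table, where Hoxc8 was not analysed. HoxA gave 9 genes, HoxB 9, HoxC 6 and HoxD 1, of 39 Hox cluster genes in the GENCODE M21 annotation. The other 14 were not analysed here.

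Hox genes encode homeodomain transcription factors that set position along the body axis. Mammals carry 4 clusters, and within each the genes lie in the order of the body levels at which they act, from the anterior paralogs at the 3′ end to the posterior paralogs at the 5′ end. Polycomb proteins hold the clusters silent, trithorax proteins keep them active, retinoic acid opens the anterior genes, and PBC and MEIS homeodomain proteins are cofactors on DNA. Adult epithelia, mammary gland included, keep a tissue-specific subset of Hox genes active. Here paralogs 1 to 3 are called anterior, 4 to 8 central and 9 to 13 posterior, which gave 5, 14 and 6 members.

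In the knockdown table, 2 libraries of NMuMG cells with no treatment on their label were set against 2 libraries of shPCBP1 cells, which carry an shRNA against the RNA-binding protein PCBP1. The study's text speaks of a scrambled shRNA in its control cells, so whether these NMuMG libraries carried one is not settled here. The knockout table held 11 libraries, all on the shPCBP1 background. The 4 controls with wild-type label were the unaltered shPCBP1 line and 3 CT clones, which had received Cas9 with no gene-specific guide. There were 3 FAM3C -/- clones, 3 LIFR -/- clones and 1 line with both genes knocked out. FAM3C is a secreted protein of the epithelial-mesenchymal transition and LIFR is the receptor subunit for leukemia inhibitory factor. The knockouts were made by excising a short coding fragment with paired guides in cells diluted to single colonies, so each line gave 1 library and a difference between groups is a difference between clonal lines. For the knockdown libraries nothing says that they came from separate cultures, so their p-values measure a spread that may be technical.

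Values are CPM, read counts scaled to a common library size, normalized separately in each table and tested only within a table. The whole-read steps of the CPM values gave 53032145 to 56496580 reads per knockdown library and 16031859 to 46901675 per knockout library. Pcbp1 was at 287 and 312 CPM in NMuMG and 14.1 and 14.2 in shPCBP1. Fam3c was at 26.4 to 42.9 CPM in the FAM3C KO clones against 47.0 to 59.4 in the controls, with no overlap. Lifr was at 14.6 to 34.9 CPM in the LIFR KO clones against 25.8 to 40.2, with overlap, and a small excision within the coding sequence need not lower the mRNA, so its level checks little. LIFR KO clones 2 and 3 and the double KO stood apart: the Spearman correlation across genes between GC content and the difference from the control mean was -0.758 to -0.704 there against -0.288 to 0.241 in the other 8 libraries, and mitochondrial mRNA made up 7.16 to 8.58% of CPM against 3.14 to 4.06%. LIFR KO differences are therefore also given with LIFR KO clone 1 alone, a lone line that is assumed to vary like the control and FAM3C KO lines.

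The summed level of 10 mesenchymal marker genes, all listed, was 536 to 557 CPM in NMuMG and 1319 to 1354 in shPCBP1, while 7 listed of 10 epithelial markers summed to 2936 to 2990 and 2774 to 2831. The epithelial sums were carried by Krt8 and Krt18, at 924 to 1302 CPM in these libraries. Cdh1 was at 232 and 237 CPM in NMuMG and 149 in both shPCBP1 libraries. The median log2 difference was -0.41 over the 6 epithelial and 1.73 over the 8 mesenchymal markers at a mean of 0.5 CPM or more, against 0.02 over all such genes. Of the epithelial markers, 6 were listed in the knockout table and summed to 2480 to 3185 CPM in the controls, 2008 to 3040 in FAM3C KO and 1226 to 2110 in LIFR KO. The mesenchymal markers there summed to 1805 to 2051, 2084 to 2243 and 1307 to 1946 CPM. Markers of other cell types, 9 of 10 listed in the knockdown table, summed to 75.6 to 77.6 CPM in NMuMG and 30.1 to 30.8 in shPCBP1. In each of these libraries only 2 of the 9 reached 1 CPM, and these carried the sum. Among the others, the pan-leukocyte marker Ptprc was at 0 to 2 reads and the endothelial marker Pecam1 at no more than 0.143 CPM. Of the 10 markers of other cell types, 5 were listed in the knockout table and summed to 30.4 to 41.2 CPM over the 3 groups. The part of these shifts in the Hox results was not tested. In bulk RNA a smaller share of cells with a transcript and less transcript in each cell cannot be told apart.

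The promoters of 3 members are shown because these genes carry the directions found below: Hoxa10 was the most abundant HoxA gene of shPCBP1 cells and was without reads in NMuMG, Hoxa5 was a central HoxA gene that rose, and Hoxb4 was a HoxB gene that fell. Each run is the 250 bases directly before a RefSeq gene start, 5′ to 3′ on the gene's own strand (build GRCm38.p6), lies outside annotated exons, and has its CG dinucleotides in capitals. Hoxa10 is at chr6:52240855-52241104 on the minus strand with 7 CG (its second start, at chr6:52234940-52235189, has 20), Hoxa5 at chr6:52204588-52204837 on the minus strand with 28, and Hoxb4 at chr11:96318017-96318266 on the plus strand with 14.
Hoxa10: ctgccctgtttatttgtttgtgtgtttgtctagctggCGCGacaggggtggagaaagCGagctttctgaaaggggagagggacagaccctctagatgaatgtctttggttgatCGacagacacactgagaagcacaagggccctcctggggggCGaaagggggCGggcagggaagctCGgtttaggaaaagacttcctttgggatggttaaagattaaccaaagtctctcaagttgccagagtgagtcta
Hoxa5: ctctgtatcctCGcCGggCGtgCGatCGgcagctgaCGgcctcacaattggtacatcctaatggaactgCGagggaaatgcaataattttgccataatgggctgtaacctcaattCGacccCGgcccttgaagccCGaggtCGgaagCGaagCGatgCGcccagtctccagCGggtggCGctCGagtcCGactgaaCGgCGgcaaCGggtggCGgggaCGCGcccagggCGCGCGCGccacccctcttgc
Hoxb4: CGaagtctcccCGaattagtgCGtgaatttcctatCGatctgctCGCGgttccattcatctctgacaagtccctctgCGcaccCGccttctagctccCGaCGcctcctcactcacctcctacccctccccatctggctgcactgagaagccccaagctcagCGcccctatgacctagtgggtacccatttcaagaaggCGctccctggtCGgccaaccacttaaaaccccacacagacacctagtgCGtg
RefSeq promoters were matched for 11 members, giving 12 windows because Hoxa10 has a second start. Their median number of CG was 12.5 against 7 over 32851 promoters. The letters TTCNNNGAA, the form of site that STAT factors downstream of LIFR are known to bind and the same on both strands, were found in 1 of the 12 windows, TTCTCTGAA before Hoxd4. That is 8.33% of the windows, against 8.30% of all promoters.

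Knockdown of PCBP1 went with a change in which Hox clusters the cells transcribed. In NMuMG cells HoxB made up 94.9% of the summed Hox level, HoxA 5.0 to 5.06% and HoxC 0.0445 to 0.0873%. In shPCBP1 cells HoxB made up 46.8 to 49.8%, HoxA 46.4 to 48.3% and HoxC 3.51 to 4.81%. The summed HoxA level was 2.13 ± 0.0823 CPM (SD, n = 2) in NMuMG and 25.1 ± 0.887 in shPCBP1, that of HoxB 40.2 ± 1.90 and 25.6 ± 0.954, and that of all Hox genes 40.9 and 43.7 CPM against 53.3 and 52.7. Per kilobase of exon the highest member was Hoxb13 in NMuMG, at 4.69 and 4.88 CPM per kb, with Hoxb6 at 4.23 and 5.03 overlapping it, and in shPCBP1 it was Hoxb7 at 3.25 and 3.57.

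**Figure D1:**
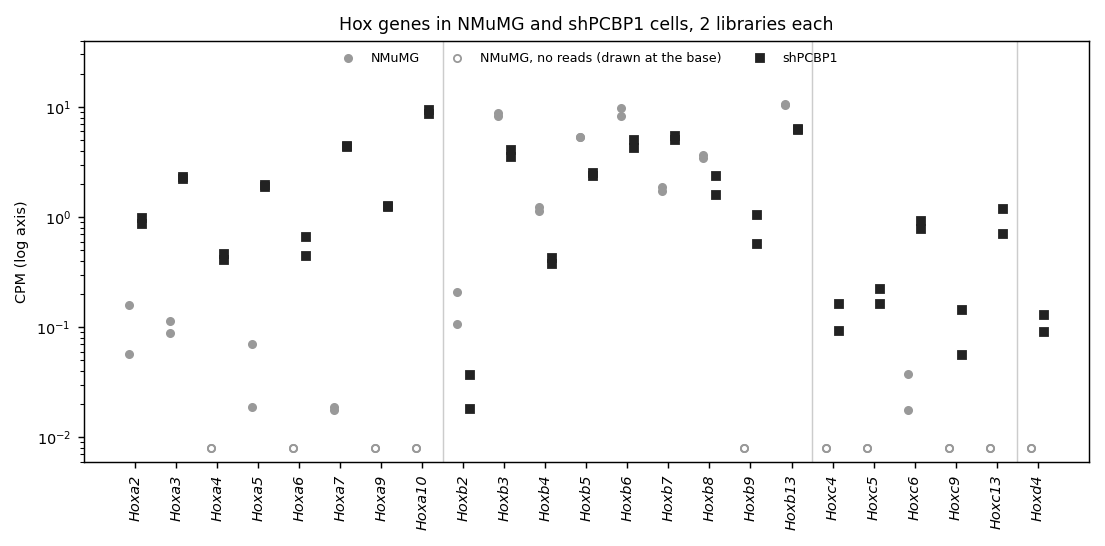
CPM of the Hox genes in the 2 NMuMG and 2 shPCBP1 libraries of the knockdown table, 1 point per library on a log axis, with genes in paralog order within each cluster and open symbols at the base for no reads. Every HoxA gene drawn sits higher in shPCBP1, with Hoxa10 at 9.44 and 8.65 CPM from no reads, while HoxB genes other than Hoxb7 and Hoxb9 sit lower.

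All 9 HoxA genes were higher in both shPCBP1 libraries than in either NMuMG library, as were 43.4% of all listed genes. Of the 9, 4 had no reads in NMuMG and could only be higher. Hoxa10, a posterior gene with a known part in endometrial and blood development, had no reads in NMuMG and stood at 9.44 and 8.65 CPM in shPCBP1, 995 reads in all. With a floor of 3 reads per library it was at least 165-fold higher. Hoxa9, its posterior neighbour and a known leukemia gene, went from no reads to 1.24 and 1.26 CPM, at least 22.7-fold higher. Both posterior HoxA genes were thus seen in shPCBP1 libraries only, at a depth where 3 reads correspond to 0.0548 CPM.

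The central HoxA genes, which pattern the trunk, followed. Hoxa7 had 1 read in each NMuMG library, 0.0178 and 0.0190 CPM, and stood at 4.42 and 4.30 CPM in shPCBP1. The ratio of its reads was 239 with a 95% Clopper-Pearson counting interval of 65.7 to 1976, which covers counting error only. Hoxa5, a known regulator of lung and mammary epithelial differentiation, was at 0.0709 and 0.0190 CPM and then at 1.95 and 1.88, a log2 difference of 3.82 ± 0.21 (SE, limma adjusted p = 2.19e-08). Hoxa6 was without reads in NMuMG and at 0.663 and 0.444 CPM in shPCBP1, at least 10.1-fold higher. Hoxa4 was likewise without reads and then at 0.465 and 0.406 CPM, at least 7.94-fold higher. Neither Hoxa4 nor Hoxa6 reached the mean of 0.5 CPM required for the test. Hoxa5 reached it only through shPCBP1 and had to differ, so its p-value is not read as support.

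Hoxa2 and Hoxa3, anterior genes that act in the hindbrain, had reads in both NMuMG libraries and rose. Hoxa2 rose from 0.159 and 0.0567 to 0.981 and 0.867 CPM (log2 difference 2.34 ± 0.24, limma adjusted p = 5.1e-06). Hoxa3 rose from 0.0886 and 0.113 to 2.23 and 2.32 CPM (3.57 ± 0.17, limma adjusted p = 6.72e-09). The log2 differences were taken on log2(CPM + 0.1) and understate the change of genes near that value. Hoxa2 and Hoxa3 too reached the filter only through shPCBP1 and had to differ, so their p-values are not read as support.

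In HoxB, 7 genes were lower and 2 higher in shPCBP1, again with no overlap between the 2 pairs of libraries, where 38.3% of all listed genes were lower. Hoxb13, the posterior end gene known from prostate epithelium, fell from 10.3 and 10.8 to 6.22 and 6.32 CPM (log2 difference -0.74 ± 0.07, limma adjusted p = 2.38e-06). Hoxb3 fell from 8.25 and 8.82 to 4.03 and 3.51 CPM (-1.16 ± 0.09, limma adjusted p = 6.33e-07). Hoxb5 fell from 5.31 and 5.30 to 2.35 and 2.49 CPM (-1.10 ± 0.10, limma adjusted p = 1.61e-06). These 3 genes kept a clear level in shPCBP1 cells, unlike the HoxA genes, of which several had no reads in NMuMG.

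Hoxb6, the member with the highest CPM per kb in the knockout table's controls, fell from 8.30 and 9.88 to 4.28 and 5.04 CPM (-0.95 ± 0.11, limma adjusted p = 9.93e-06). Hoxb4, known for the expansion of blood stem cells, fell from 1.13 and 1.24 to 0.376 and 0.425 CPM (-1.36 ± 0.16, limma adjusted p = 1.61e-05). Hoxb8 fell from 3.66 and 3.43 to 1.58 and 2.35 CPM (-0.85 ± 0.16, limma adjusted p = 0.000641). The shPCBP1 libraries thus differed more from each other for Hoxb8 than for Hoxb4 or Hoxb5. Hoxb2, below the filter, was at 0.106 and 0.208 CPM and then at 0.0180 and 0.0371, a ratio of reads of 5.69 in favor of NMuMG (counting interval 1.64 to 30.3).

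Between the falling Hoxb6 and Hoxb8 lies Hoxb7, a gene studied in breast epithelium, which rose from 1.73 and 1.87 to 5.02 and 5.51 CPM (log2 difference 1.5 ± 0.11, limma adjusted p = 2.65e-07). Hoxb9 had no reads in NMuMG and stood at 1.04 and 0.573 CPM in shPCBP1, at least 14.7-fold higher. HoxB therefore did not move as 1 block. No exons of any 2 members overlap in the annotation, but 52.9% of Hoxb3 exonic bases lie against the antisense gene Hoxb3os, 27.3% of Hoxb2 against the same gene, and 20.4% of Hoxa7 against Hoxaas3. The library kit keeps strand, but whether reads were counted by strand is not given in the sources used here, so sense and antisense reads cannot be told apart for these genes.

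HoxC and HoxD were close to silent in NMuMG and low in shPCBP1. The 5 HoxC genes summed to 0.0182 and 0.0382 CPM and then to 2.56 and 1.85 CPM. Hoxc13, the hair follicle gene at the posterior end, had no reads and then stood at 1.18 and 0.702 CPM, at least 17.2-fold higher. Hoxc6, known from the mammary gland, had 1 and 2 reads in NMuMG and stood at 0.914 and 0.776 CPM in shPCBP1, a ratio of reads of 30.9 (counting interval 10.2 to 153). Hoxc4, Hoxc5 and Hoxc9 had no reads in NMuMG and were at 0.0555 to 0.222 CPM in shPCBP1. Hoxd4, the only HoxD gene listed, had no reads and then 0.0897 and 0.129 CPM, at least 2.0-fold higher. Of its exonic bases 39.2% are shared on the same strand with Gm28230 and 13.2% with Hoxd3, so these few reads are uncertain as to gene.

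The limma test on log2(CPM + 0.1) with genes of mean 0.5 CPM or more covered 14 of the 24 members, and all 14 passed the adjusted p threshold of 0.07. Over all 11384 genes tested 80.1% passed, so at this spread the count itself says little. With a fold of at least 1.5 required as well, the 14 members (8 higher, 6 lower) stood against 31.1% of all genes, 16% higher and 15.1% lower. Hoxa2, Hoxa3, Hoxa5, Hoxa7, Hoxa9 and Hoxa10 passed the filter only through their shPCBP1 level and had to differ. Over every listed gene, the NMuMG and shPCBP1 libraries did not overlap and differed at least 1.5-fold for 24 of 24 Hox genes, against 32.6% of 15023 genes. Of these, 17 were higher (17.5% of all genes) and 7 lower (15% of all genes). Among the 17, 10 had no reads in NMuMG and, once listed, could only be higher. These counts are therefore not read against the shares of all genes. The median log2 difference was 1.52 over the 24 members, or 1.65 with genes at no reads set to their bound, and 0.02 over all genes tested. An exact permutation test on 2 against 2 libraries cannot go below p = 0.333.

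**Figure D2:**
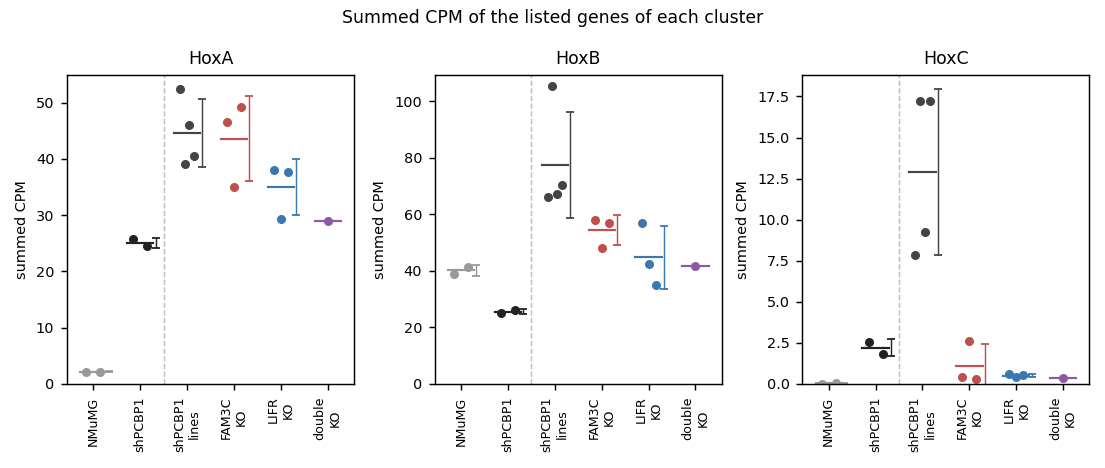
Summed CPM of each Hox cluster by group in both tables, with points for libraries and error bars of 1 SD, and a dashed line between the 2 separately normalized tables. HoxA goes from 2.13 to 25.1 CPM with PCBP1 knockdown, and HoxC goes from 12.9 CPM in the shPCBP1 lines to 1.12 in FAM3C KO and 0.507 in LIFR KO. The lower error bar of HoxC in FAM3C KO is cut at 0.

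In the knockout table the 4 shPCBP1 control lines transcribed all 25 members in at least 3 lines. Their summed levels were 44.6 ± 6.06 CPM for HoxA (SD, n = 4), 77.4 ± 18.8 for HoxB and 12.9 ± 5.04 for HoxC. Per kilobase of exon Hoxb6 was highest in every line, at 7.90 to 12.8 CPM per kb, above Hoxb5 at 4.55 to 7.94 and Hoxb13 at 4.58 to 6.21, which overlapped each other. Set beside the knockdown table, Hoxa10 was at 9.0 to 13.3 CPM here and 8.65 to 9.44 in the shPCBP1 libraries there. Hoxc6, by contrast, was at 3.74 CPM in the unaltered line here and at 0.776 to 0.914 there. The tables were normalized separately, so these levels are set side by side without a test.

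The control lines were alike in some members and far apart in others. Hoxa3 ranged 1.06-fold over the 4 lines. Hoxa7 ranged 90.9-fold, with 10.9 CPM in the unaltered line, 0.120 in CT clone 1, 7.52 in CT clone 2 and 8.47 in CT clone 3. CT clone 1 was thus nearly without this gene, while its neighbours Hoxa6, at 2.07 CPM, and Hoxa9, at 2.03, stood within the range of the other lines. The same clone had the highest Hoxb9, at 6.72 CPM against 1.21 to 2.61 in the other lines, and the highest Hoxb8, at 6.80 against 2.18 to 2.82. Hoxd4 was without reads in CT clone 1, as a library's lowest listed value is read here, and at 0.283 to 1.61 CPM in the other lines.

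**Figure D3:**
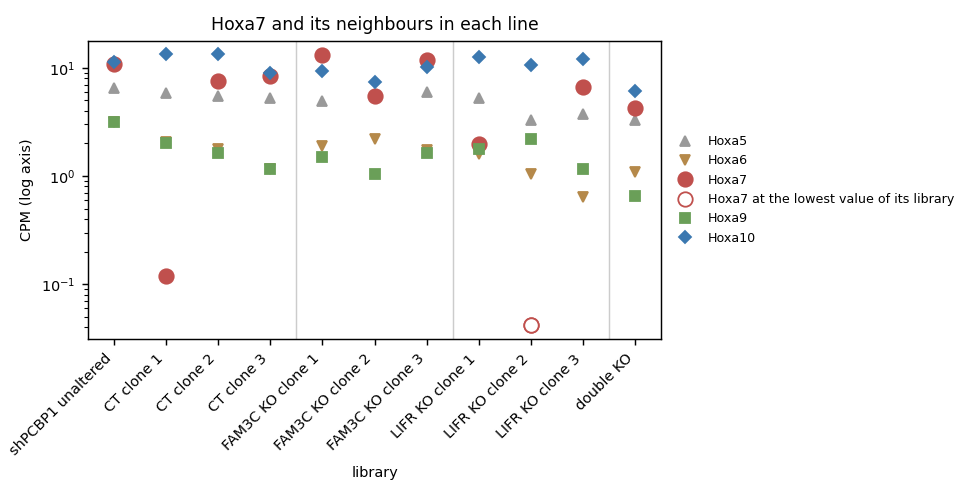
CPM of Hoxa7 and of its neighbours Hoxa5, Hoxa6, Hoxa9 and Hoxa10 in each of the 11 lines of the knockout table, 1 point per line and gene, on a log axis, with an open circle for no reads. Hoxa7 in CT clone 1, at 0.120 CPM, and in LIFR KO clone 2, without reads, sits far below the other lines, which range from 1.98 to 13.1 CPM.

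Hoxa7 also varied among the knockout clones. The FAM3C KO clones stood at 13.1, 5.43 and 11.9 CPM, the LIFR KO clones at 1.98, no reads and 6.69, and the double KO at 4.26. The knockouts overlapped the controls, with a log2 difference of 1.43 ± 1.48 in FAM3C KO (limma adjusted p = 0.864) and -1.49 ± 1.48 in LIFR KO (limma adjusted p = 0.47). The LIFR KO difference was -0.77 with clone 1 alone (limma adjusted p = 0.922) and turned to 0.09 without clone 2 (limma adjusted p = 0.976). With these standard errors a several-fold difference in either direction could have been missed.

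HoxC was the cluster that differed most between the knockouts and the shPCBP1 lines. Summed HoxC was at 7.86, 17.2, 9.25 and 17.2 CPM in the controls, at 0.443, 2.60 and 0.307 in the FAM3C KO clones and at 0.507 ± 0.0873 (SD, n = 3) in LIFR KO. Its share of the summed Hox level was 6.18 to 13.3% in the controls, 0.289 to 3.02% in FAM3C KO and 0.575 to 0.703% in LIFR KO. HoxC groups did not overlap for either knockout. The FAM3C KO and LIFR KO comparisons share the same 4 control lines.

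Hoxc6 (ENSMUSG00000001661, chromosome 15 from 102998257 to 103011881, plus strand, GRCm38) was the most abundant HoxC gene, at 3.74, 7.95, 6.14 and 9.69 CPM in the unaltered line and CT clones 1 to 3. It was at 0.177, 1.04 and 0.0384 CPM in the FAM3C KO clones, of which the last equals no reads, and at 0.268, 0.166 and 0.214 in the LIFR KO clones. It was lower in both: the log2 difference was -4.23 ± 0.61 in FAM3C KO (limma adjusted p = 0.0328) and -4.39 ± 0.61 in LIFR KO (limma adjusted p = 0.02). Hoxc6 reached the filter only through the control lines and had to differ, so these p-values are not read as support. Under other processing choices and with lines left out, it was at -5.07 to -2.48 in FAM3C KO and -4.65 to -2.63 in LIFR KO. FAM3C KO clone 2 kept a level of Hoxc6 that the other 5 knockout clones did not have, still below every control.

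Hoxc5, whose transcript runs across Hoxc6, was at 1.43, 2.22, 1.17 and 3.81 CPM in the controls. It was at 0.0886, 0.360 and 0.0768 CPM in FAM3C KO (-3.05 ± 0.48, limma adjusted p = 0.0403) and at 0.0858 or at no reads in LIFR KO (-3.69 ± 0.48, limma adjusted p = 0.0191). Hoxc4, the 3′-most gene of the cluster, was at 1.5, 5.01, 0.970 and 1.61 CPM in the controls and at no more than 0.0858 in LIFR KO (-3.50 ± 0.66, limma adjusted p = 0.038). In FAM3C KO it was at no reads, 0.720 and 0.0768 CPM, which did not overlap the controls but did not pass the test (-2.84 ± 0.66, limma adjusted p = 0.139). The highest of these values was again in FAM3C KO clone 2. Hoxc5 and Hoxc4 also reached the filter only through the control lines, so their p-values are not read as support either. Under other processing choices and with lines left out, Hoxc5 was at -3.49 to -1.36 in FAM3C KO and -4.15 to -1.50 in LIFR KO. Hoxc4 was at -3.62 to -1.25 and -3.92 to -1.46 in the same order.

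The other HoxC genes were under the filter of 0.5 CPM. Hoxc8 was at 0.374 to 0.704 CPM in the controls and without reads in all 6 single knockout clones and the double KO. Its control mean was 4.36 times the floor of 3 reads per library in FAM3C KO and 3.87 times that in LIFR KO. Hoxc13 was at 0.283 to 1.02 CPM in the controls. It was without reads in all FAM3C KO clones, where its control mean was 5.57 times the floor, and at no more than 0.107 CPM in LIFR KO. Hoxc9 was at 0.242 to 0.584 CPM in the controls. It was at 0.400 in FAM3C KO clone 2 and without reads in the other 5 knockout clones, with a control mean 2.60 times the LIFR KO floor. The lowest value of a library was not taken off these control means, so the ratios lie somewhat above a lower bound on the fold. Hoxd4 was without reads in all knockout lines, but the control line without reads makes its groups overlap. At these depths a level under about 0.1 CPM cannot be told from no transcript.

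**Figure D4:**
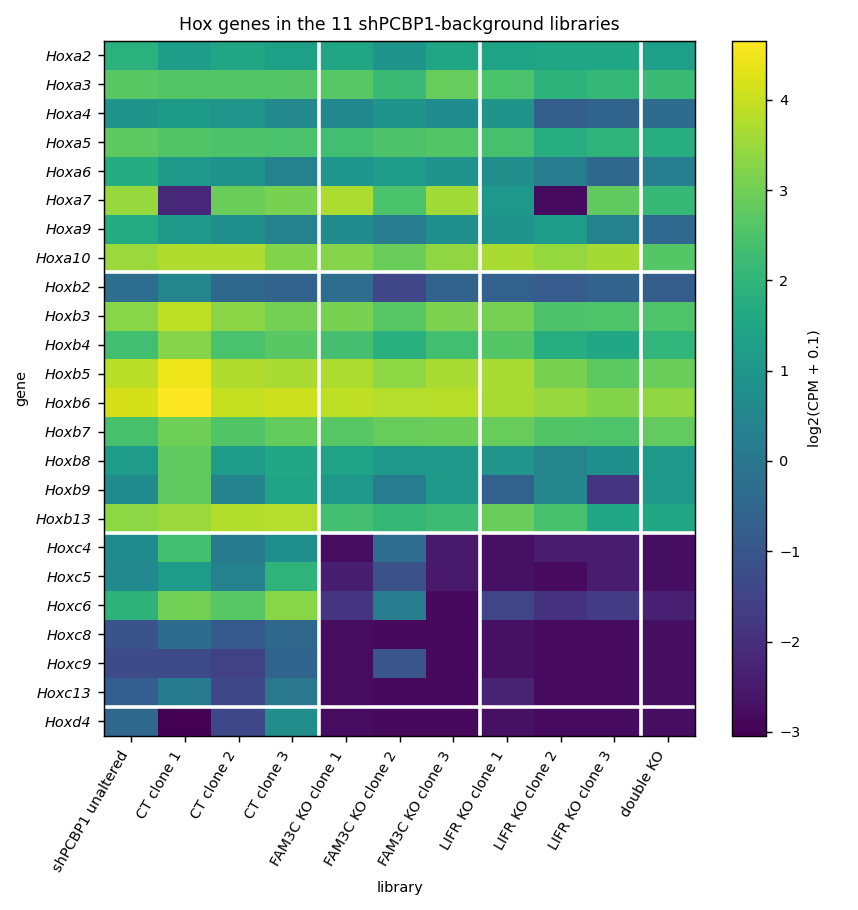
Log2(CPM + 0.1) of the Hox genes in the 11 lines of the knockout table, genes as rows in cluster and paralog order and lines as columns by group. The HoxC rows are dark in the FAM3C KO, LIFR KO and double KO columns other than FAM3C KO clone 2, where Hoxc6 is at 1.04 CPM and Hoxc4 at 0.720.

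The calls on HoxC rest on few lines. The FAM3C KO call of Hoxc5 was lost without the unaltered line, CT clone 1, 2 or 3, or FAM3C KO clone 1 or 3 (limma adjusted p = 0.0738 to 0.190). The FAM3C KO call of Hoxc6 was lost without CT clone 1, 2 or 3 or without FAM3C KO clone 1 or 3 (limma adjusted p = 0.119 to 0.146), while without FAM3C KO clone 2 the log2 difference was -5.07 (limma adjusted p = 0.00409). In an exact permutation test on 4 against 3 lines, two-sided, Hoxc4, Hoxc5, Hoxc6, Hoxc8 and Hoxc13 each gave p = 0.0286 in FAM3C KO, the smallest it can give. These genes were detected mostly in the control lines, and Hoxc8 and Hoxc13 had no reads in FAM3C KO. Separation of the groups was thus nearly fixed in advance, and these p-values are not read as further support. With LIFR KO clone 1 as the sole LIFR KO line, the log2 differences of Hoxc4, Hoxc5 and Hoxc6 were -3.68, -3.74 and -4.16, of which Hoxc5 passed (limma adjusted p = 0.0543), as did 2.22% of all genes, with no spread of its own behind that line. In LIFR KO the call of Hoxc6 was lost without CT clone 2 or 3 (limma adjusted p = 0.0812 and 0.0827), that of Hoxc5 without CT clone 3 (0.0716), and that of Hoxc4 without any 1 control line or without LIFR KO clone 2 (0.0758 to 0.111).

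Hoxb13 was lower in every single knockout clone than in any control line. It was at 10.1, 11.3, 13.4 and 13.7 CPM in the unaltered line and CT clones 1 to 3, at 5.0, 4.12 and 4.61 in FAM3C KO and at 7.40, 5.24 and 2.74 in LIFR KO. Hoxb13 fell in LIFR KO (log2 difference -1.32 ± 0.28, limma adjusted p = 0.0407). In FAM3C KO the difference was -1.38 ± 0.28 and did not pass over all genes (limma adjusted p = 0.102, exact permutation p = 0.0286). The FAM3C KO clones were closer together than the LIFR KO clones. Without LIFR KO clones 2 and 3 in the fit the FAM3C KO difference was the same -1.38, as only the estimate of the spread changed. That fit was chosen after the data were seen. With LIFR KO clone 1 alone the LIFR KO difference was -0.69 and did not pass (limma adjusted p = 0.165). The LIFR KO call was also lost without any 1 control line, FAM3C KO clone 1 or 3, or LIFR KO clone 2 (limma adjusted p = 0.072 to 0.129).

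Hoxb6 was at 17.6, 25.1, 15.5 and 16.7 CPM in the controls, at 15, 13.7 and 13.9 in FAM3C KO and at 12.4, 11 and 9.18 in LIFR KO. The 3 groups did not overlap. The difference from the controls passed in LIFR KO (-0.77 ± 0.17, limma adjusted p = 0.0478) but not in FAM3C KO (-0.37 ± 0.17, limma adjusted p = 0.502). The median over all genes tested was itself -0.16 in LIFR KO, and after rescaling by median ratios, which brought it to -0.01, Hoxb6 was at -0.61 (limma adjusted p = 0.0734). With LIFR KO clone 1 alone it was at -0.57 (limma adjusted p = 0.35), and its call was lost without any 1 line other than FAM3C KO clone 2 or LIFR KO clone 1. The other HoxB genes did not pass in LIFR KO, at -0.04 ± 0.17 for Hoxb7 to -1.99 ± 0.64 for Hoxb9 (limma adjusted p = 0.888 and 0.0842). With clone 1 alone these stood at 0.16 and -1.97 (limma adjusted p = 0.845 and 0.349), and Hoxb7 was at 0.12 after median-ratio rescaling. Hoxb5, for instance, was at 14.3, 22.1, 13.3 and 12.7 CPM in the controls, 12.8, 10.2 and 12.6 in FAM3C KO and 12.7, 8.53 and 6.48 in LIFR KO (-0.77 ± 0.25, limma adjusted p = 0.0836; -0.26 with clone 1 alone, limma adjusted p = 0.785).

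The other HoxB genes above 5 CPM in any line overlapped in both knockouts, apart from Hoxb8 in LIFR KO. Hoxb3 was at 9.65, 15.1, 9.85 and 8.12 CPM in the unaltered line and CT clones 1 to 3, at 8.5, 6.16 and 8.66 in FAM3C KO and at 8.37, 5.58 and 5.66 in LIFR KO. Hoxb4 was at 4.87, 9.45, 5.33 and 6.32 CPM, then at 5.14, 3.52 and 4.92 in FAM3C KO and 6.01, 3.29 and 2.83 in LIFR KO. In both genes CT clone 1 was the highest of the 11 lines. Hoxb7, which rose with the knockdown, overlapped across the groups, at 5.24, 7.63, 5.86 and 6.97 CPM in the controls, 6.20, 7.20 and 7.49 in FAM3C KO and 7.13, 5.86 and 5.70 in LIFR KO. Hoxb8 was at 2.18, 6.80, 2.18 and 2.82 CPM in the controls, 2.52, 2.08 and 2.04 in FAM3C KO and 1.88, 1.29 and 1.67 in LIFR KO (-0.92 ± 0.36, limma adjusted p = 0.111), with -0.69 in clone 1 alone (limma adjusted p = 0.681). Hoxb9 spread widely within groups, at 1.5, 6.72, 1.21 and 2.61 CPM in the controls, 1.99, 1.04 and 2.07 in FAM3C KO and 0.536, 1.33 and 0.172 in LIFR KO. Among the single knockouts, the lowest values of Hoxb3, Hoxb4 and Hoxb5 were in LIFR KO clones 2 and 3, the clones that stood apart in GC content.

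HoxA did not pass the test in either knockout. In FAM3C KO its 9 genes gave a median log2 difference of -0.09 with adjusted p from 0.502 to 0.998 by limma. Hoxa10 was at 11.3, 13.3, 13.3 and 9.0 CPM in the controls, 9.39, 7.40 and 10.3 in FAM3C KO and 12.6, 10.7 and 12.1 in LIFR KO. In LIFR KO the HoxA median was -0.46, and -0.14 with clone 1 alone. Hoxa5 was at 6.55, 5.84, 5.54 and 5.29 CPM in the controls, 4.92, 5.52 and 5.92 in FAM3C KO and 5.26, 3.29 and 3.77 in LIFR KO (-0.51 ± 0.18, limma adjusted p = 0.0946). Hoxa3 was at 6.31, 5.93, 5.94 and 5.95 CPM in the controls, 6.19, 4.48 and 7.24 in FAM3C KO and 5.42, 3.68 and 4.13 in LIFR KO (-0.46 ± 0.19, limma adjusted p = 0.121). LIFR KO clone 1 was the closest to the controls for both genes, at -0.14 for Hoxa5 and -0.15 for Hoxa3 (limma adjusted p = 0.842 and 0.871), and clones 2 and 3 were lower. Hoxa2, Hoxa4, Hoxa6 and Hoxa9 overlapped the controls in both knockouts, at 0.510 to 3.56 CPM.

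Over all members, 2 of the 21 tested passed in FAM3C KO, both lower, against 0.309% of 12621 genes in either direction and 0.222% lower. In LIFR KO 5 of 21 passed, all lower, against 6.47% of all genes, 5.55% lower and 0.911% higher. Hoxc4, Hoxc5 and Hoxc6 reached the filter only through the control lines and had to differ, so these counts are not read against the shares of all genes. The calls beside them were Hoxb6 and Hoxb13 in LIFR KO. The lower share of all calls, 85.9%, was 62.9% after median-ratio rescaling and 97.2% after a GC correction. Groups did not overlap for 7 of 25 Hox genes lower in FAM3C KO (12.1% of all listed genes) and none higher (9.66% of all listed genes). In LIFR KO they did not overlap for 13 of 25 lower (12.8%) and none higher (3.84%). LIFR KO clone 1 alone lay below all controls for 15 of 25 (27.8% of all listed genes) and above them for none (21.6%). HoxC genes were 5 of the 7, 6 of the 13 and 6 of the 15. They were detected mostly in the control lines, so these counts are not read against the shares either. The median log2 difference over the 25 members was -0.43 in FAM3C KO, against -0.01 over all genes tested, and -0.84 in LIFR KO, against -0.16. With LIFR KO clone 1 alone it was -0.43, against -0.01.

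**Figure D5:**
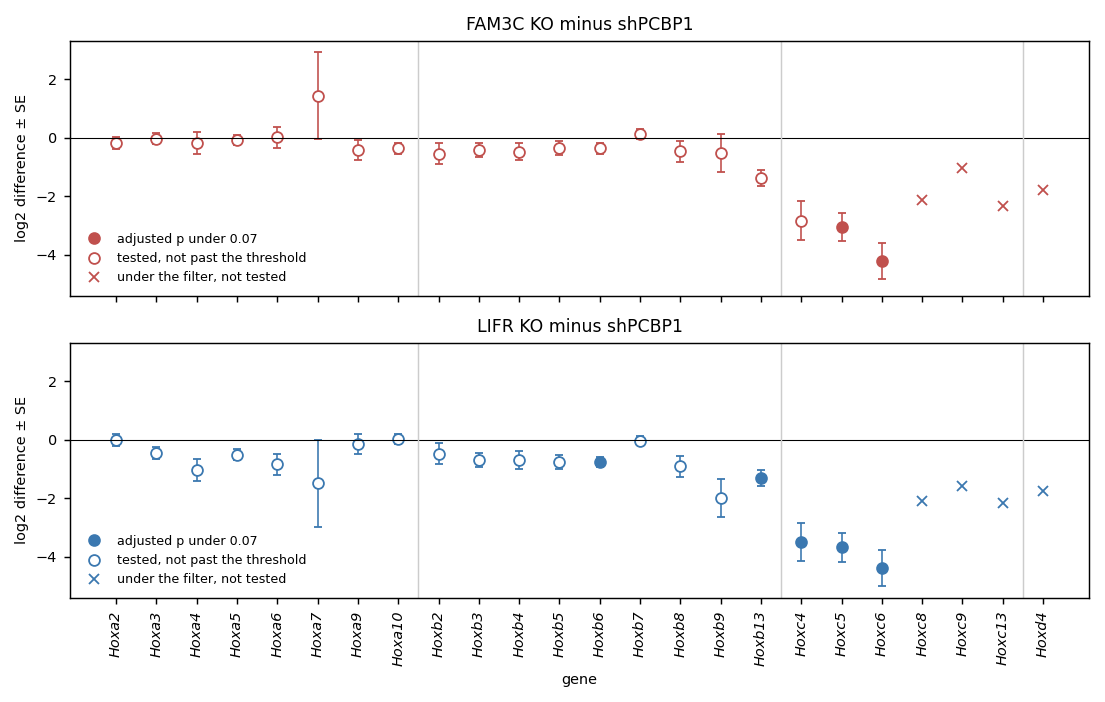
Log2 difference from the 4 shPCBP1 lines, with error bars of 1 SE from limma, for Hox genes in FAM3C KO and in LIFR KO; filled circles passed, open circles did not and crosses were under the filter, where a value against no reads depends on the added 0.1. Hoxc4, Hoxc5 and Hoxc6 lie between -2.84 and -4.39 in both knockouts, Hoxb13 at -1.38 and -1.32, and most HoxA genes near 0 in FAM3C KO.

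Set directly against each other, the knockouts did not differ in any of the 21 members tested by limma at the adjusted threshold, where 8.28% of all genes did. An unadjusted limma p under 0.05 was reached by 1 of the 21, beside 3693 of all 12621 genes tested. The 3 LIFR KO and 3 FAM3C KO clones did not overlap for 4 of 25 members, 3 higher in FAM3C KO and 1 lower, against 22% of all listed genes, 15.5% higher and 6.53% lower. Hoxa6 (log2 difference 0.85 ± 0.38, limma adjusted p = 0.17), Hoxb6 (0.39 ± 0.19, limma adjusted p = 0.184) and Hoxb8 (0.44 ± 0.39, limma adjusted p = 0.439) were higher in FAM3C KO, and Hoxa10 was lower (-0.39 ± 0.18, limma adjusted p = 0.186). Against LIFR KO clone 1 alone these 4 differences were 0.25, 0.19, 0.22 and -0.49 (limma adjusted p = 0.293 to 0.855). Without LIFR KO clone 1, 6 members passed, all higher in FAM3C KO, beside 52.9% of all genes. The smallest p of an exact permutation test on 3 against 3 is 0.1.

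The double KO line has no replicate. It stood at 29.0 CPM for summed HoxA, 41.6 for HoxB and 0.328 for HoxC, with Hoxc6 at 0.0937 CPM, Hoxb13 at 2.90, Hoxb6 at 10.2 and Hoxa10 at 6.04. Its HoxC sum was within the range of the single knockouts, whereas its HoxA sum and its Hoxa10 were below every other line of the table.

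Genes around and upstream of the Hox clusters were read from lists chosen with earlier results of these data known. In shPCBP1 against NMuMG, with a fold of at least 1.5 required besides the adjusted p, as met by 31.1% of all genes, 2 of 5 HoxB neighbours passed, both higher (Atp5g1 and Snx11, each 0.75), as did 1 higher and 1 lower of 6 HoxC neighbours (Zfp385a 0.72, Calcoco1 -0.77) and none of 4 HoxA or 6 HoxD neighbours. Among PBC and MEIS cofactors, 2 of 8 rose (Pbx4 3.71, Meis1 0.95) and 1 fell (Meis3 -1.32). Of 31 Polycomb genes 1 rose and 5 fell. The riser was Cbx7, a subunit of Polycomb repressive complex 1, from 0.0903 to 15.7 CPM (6.40 ± 0.17, limma adjusted p = 7.49e-11), and Mtf2, Pcgf6, Phf1, Ring1 and Rnf2 fell by 0.59 to 0.83 on the log2 scale. Cbx7 reached the filter only through shPCBP1 and had to differ, so its p-value is not read as support. Of 20 trithorax and H3K27 demethylase genes 1 rose (Ash2l 0.79) and 1 fell (Ash1l -0.60). The Polycomb and trithorax counts lie below the share of all genes.

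By the same rule of adjusted p and a fold of at least 1.5, met by 31.1% of all genes, 6 of 9 retinoic acid genes tested rose with the knockdown and 1 fell. Cyp26b1, which breaks retinoic acid down, rose by 3.63, Stra6, which takes up retinol, by 2.54, and Rdh10, which oxidizes it, by 2.01, while Rara, Rarg and Aldh1a1 rose by 0.60 to 0.63 and Dhrs3, which reduces retinal, fell by 1.63 on the log2 scale. The list median was 0.61 against 0.02 over all genes. Among 14 Cdx and other homeobox genes 4 were higher by that rule, among them Msx1, from no reads to 2.08 CPM, Cdx2, by 0.95, and Dlx1, by 1.0. The 4 that were lower were Meox2, from 8.97 CPM to no reads, Tshz2 (-2.94), Dlx4 (-1.22) and Pdx1 (-1.0). Msx1 and Meox2 reached the filter through 1 group only and had to differ.

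In FAM3C KO, where 0.309% of all genes passed by limma, none of the neighbours, cofactors, Polycomb, trithorax or retinoic acid genes did, and of 17 other homeobox genes 1 did, Irx3, at 2.37 to 5.05 CPM in the controls and without reads in the 3 clones (limma adjusted p = 0.0432). Irx3 reached the filter only through lines other than FAM3C KO and had to differ, so this p-value is not read as support. In LIFR KO, where 5.55% of all genes were called lower, 4 of 7 HoxC neighbours fell, Zfp385a by 1.05, Calcoco1 by 0.76, Nfe2 by 0.74 and Smug1 by 0.45 on the log2 scale. None of the 4 HoxA, 5 HoxB or 6 HoxD neighbours passed. Of 9 retinoic acid genes 3 fell, the receptors Rarg and Rxra by 0.96 and 0.63 and Cyp26b1 by 1.60, which was at 62.1 to 76.3 CPM in the controls and 18.7 to 25.7 in the clones. None of the 8 cofactors passed. Of 31 Polycomb genes 2 fell, Cbx6 by 0.90 and Ezh1 by 0.45, of 20 trithorax genes 1 fell, Kmt2d by 0.87, and of 17 other homeobox genes 3 fell, among them Lhx2 and Tshz2. The Polycomb and trithorax counts are near the share of all genes.

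In FAM3C KO against LIFR KO, where 8.28% of all genes passed, 3 of 7 HoxC neighbours were higher, Zfp385a by 1.31, Calcoco1 by 1.06 and Smug1 by 0.48, where none of the 3 HoxC genes tested passed. Of the Polycomb genes 3 of 31 were higher, among them Cbx6 and Cbx8, of the trithorax and demethylase genes 1 was higher (Kmt2d) and 1 lower (Kdm6a) of 20, of the retinoic acid genes 3 were higher (Cyp26b1, Rarg, Rxra) and 2 lower (Aldh1a1, Dhrs3) of 9, and of the other homeobox genes 1 was higher and 1 lower (Hhex) of 17. The Polycomb, trithorax and homeobox counts are near the share of all genes. No HoxA, HoxB or HoxD neighbour and no cofactor passed.

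Without LIFR KO clones 2 and 3 the counts for these lists changed. The tests on LIFR KO then take the spread of its lone line from the other groups and do not repeat those above independently. Against the controls, all 7 HoxC neighbours lay lower in LIFR KO clone 1, beside a median log2 difference of -0.01 over all genes tested. They stood at -0.77 (Nfe2), -0.71 (Zfp385a), -0.70 (Calcoco1), -0.58 (Copz1), -0.54 (Cbx5), -0.47 (Smug1) and -0.44 (Hnrnpa1). Of these, Nfe2, Zfp385a and Hnrnpa1 did not pass in this fit. Cyp26b1 was at -1.40, while Rarg, Rxra, Cbx6, Ezh1, Kmt2d, Lhx2 and Tshz2 did not pass in this fit. Yaf2 was lower (-0.69) and Setd1a higher (0.44) in this fit. Against LIFR KO clone 1, where 9.45% of all genes passed, 6 of 7 HoxC neighbours were higher in FAM3C KO, by 0.43 to 1.00. In the same fit FAM3C KO against the controls gave 1 of 10 retinoic acid genes lower (Cyp26b1, -0.80), 1 of 8 cofactors lower (Pbx3, -0.31), 6 of 17 homeobox genes lower and 1 trithorax or demethylase gene in each direction (Dpy30, 0.39, and Kdm6a, -0.85), where 8.38% of all genes passed.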

How the data were processed

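NMuMG RNA was depleted of rRNA and sequenced as directional paired-end libraries. Per the labels and methods, the authors aligned reads with Bowtie2 to GRCm38 (mm10) and normalized in Partek Flow, with DESeq for differences; counting rules are not given in the sources used here. Listed gene starts equalled those of GENCODE M21 for 302 of 13870 matched genes and 0 of 25 Hox genes in the knockout table. In the knockdown table they did for 14269 of 14795 and 24 of 24. The reason was not tested, and gene positions, exon lengths and overlaps were taken from GENCODE M21 by gene identifier. The deposited values are CPM. The knockdown table adds 0.0001 CPM to each value, and in the knockout table the lowest value of a library was taken as no reads. The ratio (fold change) and mean columns of the authors were not used. Values at whole numbers of reads (within 0.05) were a fraction of 0.833 to 0.848 (knockout) and 0.886 to 0.892 (knockdown) of low values, so no count test was run. Limma 3.58.1 in R 4.3.3 was run on log2(CPM + 0.1), with trend, over genes of mean 0.5 CPM or more (12621 and 11384), the 3 replicated knockout groups in 1 fit without the double KO, Benjamini-Hochberg adjusted p under 0.07 as called, and was tested on simulated data. Exact permutation tests were two-sided. Floors were 3 reads per library. Per-sample values are given for members called in any comparison, or not overlapping at a group mean of 1 CPM, or at 5 CPM in any library; others were named after their values were seen. Members and lists were chosen with earlier results of these data known. Leaving LIFR KO clones 2 and 3 out of the FAM3C KO fit, the member summaries and the list counts was chosen after seeing the data. Values of 1 member and of some listed genes are not reported here, though counts, medians and sums include them. Python 3.11.15 drew the figures.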

Additional observations from a re-analysis of the deposited data

Results flagged for a closer look

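Of the 24 Hox genes examined in the 4 shPCBP1 control lines, 2 had a line whose distance from its nearest neighbour, as a share of the whole range, was past Dixon's 95% limit. Chance flags about 1 in 20. Hoxa7 was at 0.120 CPM in CT clone 1 against 7.52 to 10.9 in the other lines. Hoxa3 was at 6.31 CPM in the unaltered line, and its 4 lines ranged only 1.06-fold, so the other 3 lines were close together.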

How the results depend on the processing

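No member that passed in a comparison changed direction there under any alternative run, while some that did not pass changed sign. Hoxb7 in LIFR KO, at -0.04, was at 0.12 with median-ratio rescaling, 0.21 with quantile normalization, 0.028 with GC correction, 0.16 with LIFR KO clone 1 alone and -0.13 to 0.051 with a line left out. Hoxa7 in LIFR KO, at -1.49, was at -2.83 to 0.087 with a line left out. The 14 members called in shPCBP1 against NMuMG, beside 80.1% of all genes, were 24 with no filter on low values (67.7% of all genes). The replicate block left 14 (81.1%). Leaving out a library leaves 1 in its group, so no count is given for it. The replicate numbers did not pair the samples, since deviations of same-numbered lines correlated from -0.181 to 0.154. In FAM3C KO 2 members were called, beside 0.309% of all genes, and the shares of all genes follow in brackets. They became 0 with the replicate block (0.119%) and 0 with GC correction and block (0.0555%). Quantile normalization left 1, Hoxc6 (0.254%), and a mean of at least 1 CPM left 1 (0.177%). There were 4 with no filter (0.324%) and 4 with only the 2 groups in the fit (8.29%). With a line left out there were 0 to 3 (0.0238 to 2.84%). In LIFR KO 5 members were called (6.47%). They became 0 with the block (0.0792%), 0 with GC correction and block (0.0555%) and 3 with only the 2 groups (0.278%). With a line left out there were 0 to 14 (0.0397 to 57.4%). The 14 were without LIFR KO clone 1, where 57.4% of all genes passed, and the 0 was without CT clone 3. With a line left out, counts at or under 3 were found without the unaltered line (2), CT clone 1 (2), CT clone 2 (1), FAM3C KO clone 1 (3), FAM3C KO clone 3 (3) and LIFR KO clone 2 (2). FAM3C KO against LIFR KO gave 0 members under every alternative except without LIFR KO clone 1 (6). Genes called over the whole table varied more: 39 in FAM3C KO, from 3 to 1060, and 816 in LIFR KO, from 5 to 7234. The cause of these changes was not tested. Depth limits HoxC in the knockouts, where 3 reads are about 0.1 CPM.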
